A study of Mus musculus with 9 samples.

Results

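The mitochondrial ribosomal protein genes are the nuclear genes Mrpl and Mrps, and they were taken from the count table by symbol, as every gene named Mrpl or Mrps with a number and at most one letter a, b or c, without pseudogenes. The rule found 77 of the 24421 genes in the table, 48 with a large subunit symbol (Mrpl) and 29 with a small subunit symbol (Mrps). All 77 passed the filter on low counts, which left 12575 genes for testing. The genes were measured by poly(A) RNA-seq in 9 libraries of 4T1, a mouse mammary carcinoma line that forms lung metastases in mice, with 3 libraries for each of 3 conditions. The conditions were 3D spheroids without added palmitate, 3D spheroids with 75 µM palmitate, and 2D monolayers with 75 µM palmitate, all kept for 5 days. Spheroids grew on soft agar, all media held serum, and the cultures without added palmitate received the albumin carrier and ethanol alone. A 2D culture without palmitate was not analysed here, so the 2D and 3D cultures were compared with palmitate present in both.

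Mitochondria carry their own ribosomes, which translate the few proteins encoded by mitochondrial DNA, all of them subunits of the respiratory chain and ATP synthase. The RNA of these ribosomes comes from mitochondrial DNA, whereas every one of their proteins is encoded in the nucleus, made in the cytosol and imported. The large subunit joins amino acids and the small subunit reads the mRNA, and each holds proteins related to those of bacterial ribosomes beside proteins found in mitochondria only. Symbols do not always give the place, since Mrps30 and Mrps18a are known to lie in the large subunit. No gene of mitochondrial DNA was analysed here, so the values concern only the nuclear share of this machine.

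Libraries held between 6595514 and 31177756 counts in total, and the smallest was replicate 3 of the 3D cultures with palmitate. Members had between 23 and 7641 counts in a library, and 68 of the 77 had at least 100 counts in every library. The ribosomal RNA precursor Rn45s took 1.77% to 5.38% of the counts. The epithelial markers Epcam, Cdh1, Krt8, Krt18 and Krt19 were at 117 CPM (TMM-normalized counts scaled to library size) or more in every library, whereas Cd3e and Lum had no count and Ptprc, Pecam1, Cdh5, Kdr and Dcn stayed under 1 CPM. Of the other markers of white blood cells and fibroblasts, Cd68 had 25.1, 24.3 and 27.8 CPM in 2D and 11.1, 9.27 and 7.81 CPM in 3D with palmitate, and Pdgfra 29.5, 31.2 and 30.4 CPM and 91.7, 94.3 and 110.4 CPM. In bulk RNA, fewer cells of a type and less RNA per cell cannot be told apart. The study's methods speak of biological replicates in general, but the labels of these libraries do not say whether each was a separate culture, so p-values measure the spread between these libraries, part of which may be technical.

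In spheroids, mitochondrial ribosomal protein genes stood below their monolayer levels almost without exception, with palmitate in both. At an adjusted p under 0.05 (quasi-likelihood test of edgeR, adjusted by Benjamini-Hochberg over all genes tested), 73 of the 77 genes were lower in 3D and 0 were higher, whereas 33.9% of all genes tested were lower and 34.5% were higher. The 4 remaining genes also had negative fold changes. Large subunit symbols gave 46 of 48 genes lower and small subunit symbols 27 of 29. Over the members, the median log2 fold change reached -0.68, which is a level 37.4% lower, and over all genes tested it was 0.01. It stood at -0.74 for the large subunit symbols and -0.58 for the small. The levels of all 3 libraries in 3D lay below all 3 in 2D for 73 members, against 34.8% of the genes tested. The decrease was moderate for most genes, and 8 members were at or under a log2 fold change of -1, with 6 of them in the large and 2 in the small subunit. The median standard error of a member's log2 fold change was 0.08.

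**Figure D1:**
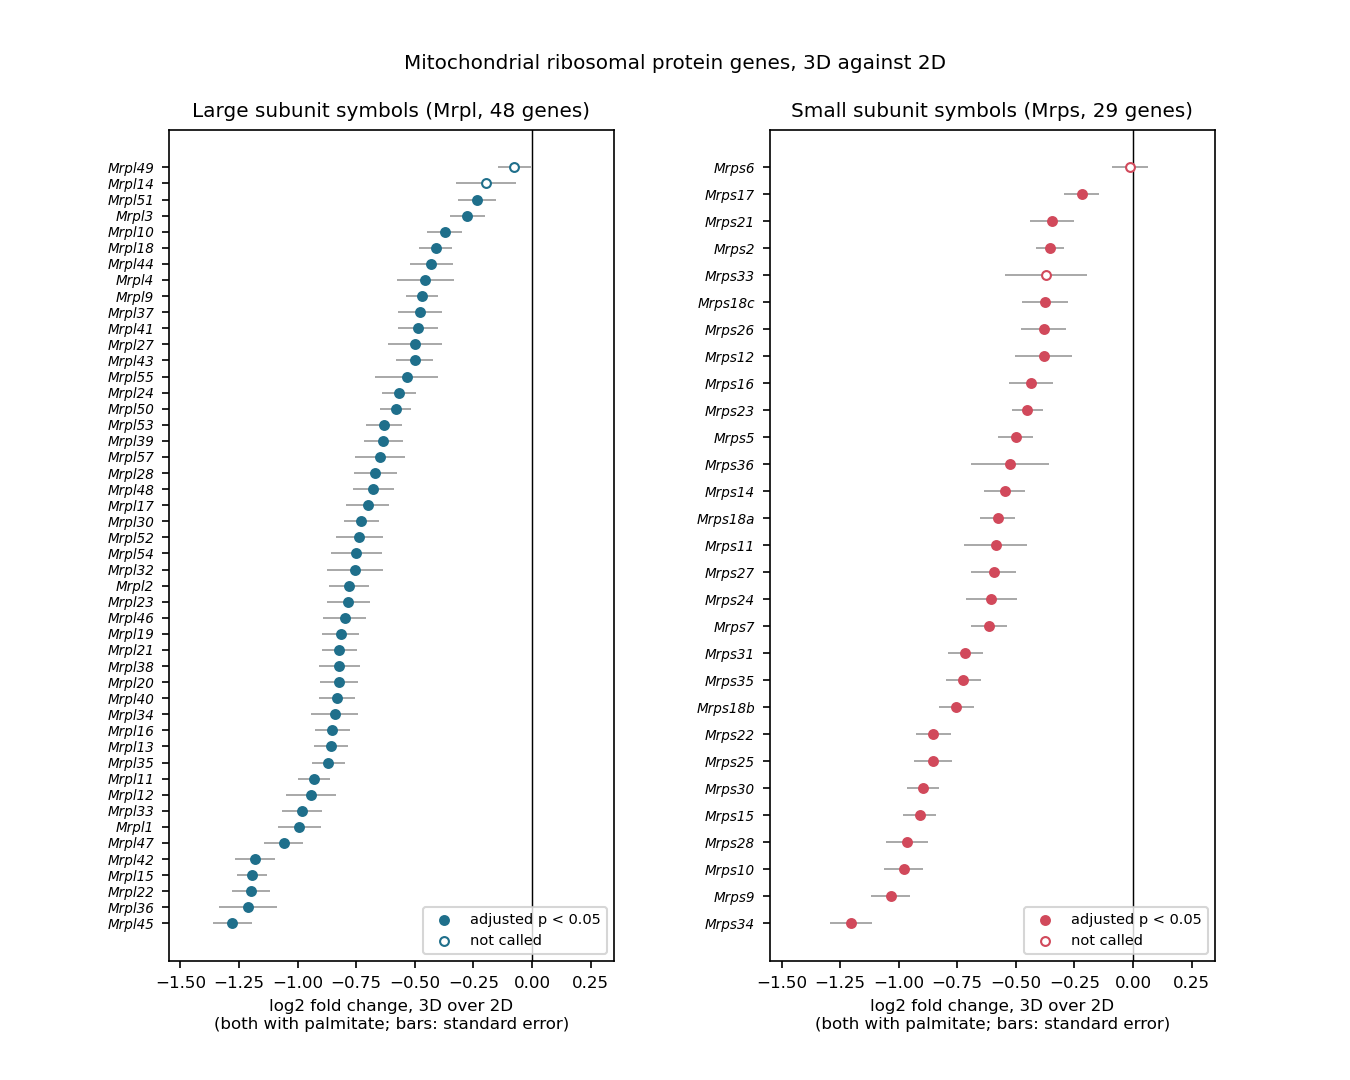
Log2 fold change of each of the 77 genes in 3D over 2D cultures with palmitate (x axis), ordered by size, with large subunit symbols on the left and small on the right. Bars are standard errors and open circles are genes not called at an adjusted p under 0.05; all 77 points lie below 0, from -0.01 for Mrps6 to -1.28 for Mrpl45.

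The 3D cultures without palmitate lay at the same side, although the fold change itself does not compare them. Their libraries did enter the filter, the scaling and the estimate of spread of the same fit. For 73 of the members, all 6 libraries of 3D cultures had lower levels than every 2D library. That pattern was not counted over all genes tested. Of these, 34.8% had all 3 libraries of 3D with palmitate below all 3 in 2D. The order of the 3 mean levels was 2D, then 3D with palmitate, then 3D without palmitate for 62 of the 77 members, and 30.7% of all genes tested had this order. For 14 members the levels of the 3D cultures were in the opposite order, and for Mrps6 the 3 means nearly coincided. The 3D means lay close together in both orders, as the palmitate comparison shows.

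**Figure D2:**
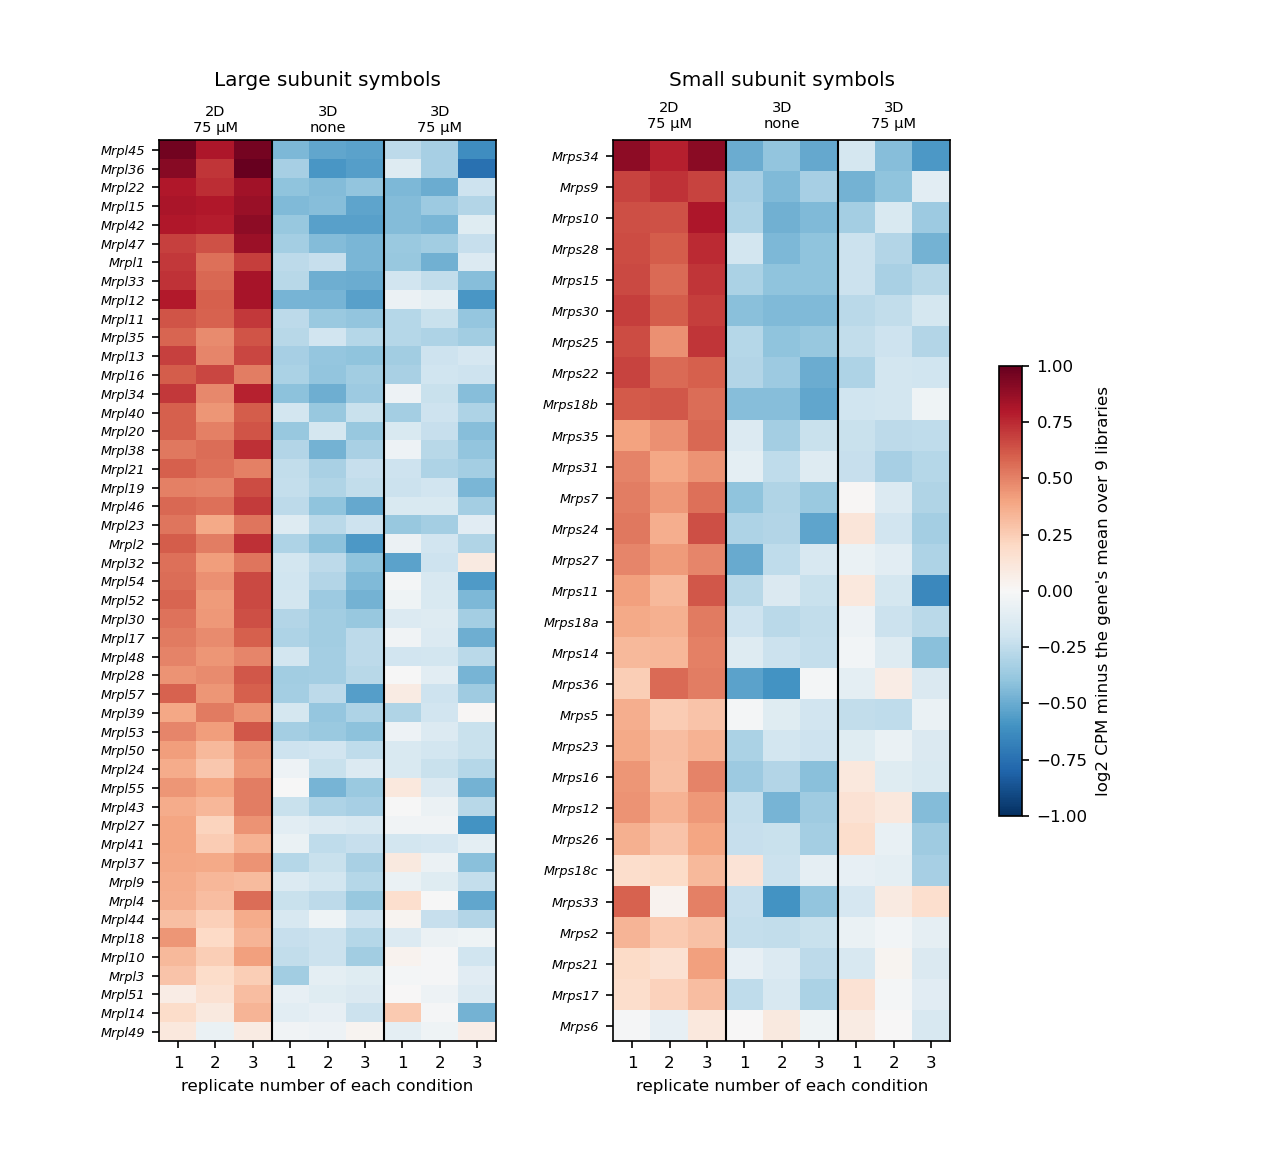
Level of each gene in each of the 9 libraries, as log2 CPM minus the mean of that gene over all libraries (colour), with genes in rows ordered by their 3D over 2D change and libraries in columns by condition and replicate. The 2D columns are above the mean of the gene in nearly every row and the 3D columns below it, apart from rows such as Mrpl49 and Mrps6 at the bottom.

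Mrpl45, a large subunit protein found in mitochondria only, sits at the exit of the tunnel through which the new peptide leaves and faces the inner membrane (its gene lies at chr11:97315716-97329920 of GRCm38). It had 92.1, 82.5 and 91.3 CPM in the 2D libraries, 34.5, 32.9 and 32.6 CPM in 3D without palmitate and 39.3, 37.4 and 30.6 CPM in 3D with palmitate. All 3D libraries were thus under all 2D libraries, and the log2 fold change of -1.28 (SE 0.08, adjusted p = 6.66e-09) left 41.2% of the 2D level. Mrpl22, whose bacterial relative lines the tunnel wall, had 43.3, 41.7 and 44.7 CPM in 2D and 18.3, 17.7 and 21.6 CPM in 3D with palmitate, a log2 fold change of -1.20 (SE 0.08, adjusted p = 9.83e-09). Its libraries fell into 2 narrow ranges without overlap. Mrpl23 and Mrpl24, both at the rim of the exit, changed by -0.78 (SE 0.09, adjusted p = 3.65e-06) and -0.57 (SE 0.07, adjusted p = 8.01e-06). Mrpl4, which reaches into the tunnel, changed less, by -0.46 (SE 0.12, adjusted p = 0.00402). Its 3D libraries with palmitate were spread from 29.6 to 47.8 CPM but still lay under the lowest 2D library, at 52.5 CPM.

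Mrpl2, which lies near the site where peptide bonds form and is a relative of one of the most conserved proteins of bacterial ribosomes, had 76.0, 71.4 and 82.9 CPM in 2D and 48.0, 43.8 and 40.6 CPM in 3D with palmitate, a log2 fold change of -0.78 (SE 0.09, adjusted p = 1.53e-06). Mrpl3 had 64.4, 60.0 and 62.8 CPM and 52.1, 52.6 and 49.0 CPM, and its change of -0.28 (SE 0.07, adjusted p = 0.00434) was among the smallest of the genes called. The ranges of both genes did not overlap between 2D and 3D. Mrpl12, the stalk protein that recruits translation factors, had 152, 133 and 155 CPM in 2D, 63.7, 63.7 and 60.3 CPM in 3D without and 84.3, 81.8 and 58.5 CPM in 3D with palmitate. It changed by -0.94 (SE 0.11, adjusted p = 1.81e-06), and replicate 3 with palmitate was as low as the libraries without palmitate.

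Of the other large subunit genes, Mrpl15, a protein of the rRNA core, had the smallest p of all members. It had 102, 101 and 105 CPM in 2D and 42.9, 45.0 and 47.2 CPM in 3D with palmitate, with a change of -1.20 (SE 0.06, adjusted p = 7.60e-10). Mrpl42, found in mitochondria only, went from 97.9, 97.0 and 104 CPM to 41.6, 40.8 and 51.6 CPM, a change of -1.18 (SE 0.09, adjusted p = 1.86e-08). For both genes the highest 3D library was at about the middle between zero and the 2D libraries. Mrpl13 had 279, 245 and 277 CPM in 2D and 137, 151 and 155 CPM in 3D with palmitate, and changed by -0.86 (SE 0.07, adjusted p = 7.74e-08). Mrpl41 and Mrpl44, both proteins of mitochondria only, of which Mrpl44 has a ribonuclease III fold, changed by -0.49 (SE 0.08, adjusted p = 1.30e-04) and -0.43 (SE 0.09, adjusted p = 7.56e-04).

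In the small subunit, the strongest decrease was that of Mrps34, a protein of mitochondria only (chr17:24895116-24897502 of GRCm38). It had 68.4, 63.0 and 68.6 CPM in 2D, 25.98, 27.8 and 25.8 CPM in 3D without and 32.6, 27.3 and 24.7 CPM in 3D with palmitate. The log2 fold change was -1.20 (SE 0.09, adjusted p = 2.44e-08), which left 43.4% of the 2D level, and no 3D library came near the lowest 2D library. Mrps9, whose bacterial relative reaches the peptidyl tRNA, had 105, 109 and 105 CPM in 2D and 47.4, 49.99 and 61.4 CPM in 3D with palmitate, a change of -1.03 (SE 0.08, adjusted p = 5.45e-08). Mrps15, which binds the small rRNA, changed by -0.91 (SE 0.07, adjusted p = 3.00e-08), and Mrps22, a protein of mitochondria only, by -0.85 (SE 0.07, adjusted p = 1.27e-07). Mrps28 changed by -0.97 (SE 0.09, adjusted p = 2.87e-07). These 5 genes were each without overlap between the conditions.

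Mrps12, a small subunit protein whose bacterial relative sets the accuracy of decoding, had 15.0, 13.97 and 14.8 CPM in 2D and 12.1, 11.8 and 8.12 CPM in 3D with palmitate, a change of -0.38 (SE 0.12, adjusted p = 0.0116). Mrps5, at the mRNA entry, and Mrps7, near the mRNA exit, changed by -0.50 (SE 0.07, adjusted p = 3.18e-05) and -0.62 (SE 0.08, adjusted p = 5.35e-06). Mrps2 had 67.2, 63.5 and 65.1 CPM in 2D and 50.6, 52.2 and 49.9 CPM in 3D with palmitate, and its small change of -0.35 (SE 0.06, adjusted p = 1.04e-04) came with tight libraries. Mrps16, of the body of the subunit, changed by -0.44 (SE 0.09, adjusted p = 7.55e-04). All 5 genes were lower in every 3D library with palmitate than in every 2D library. The call of Mrps12 was lost with GC and length trends removed (-0.15) and after thinning all libraries to the smallest (-0.32).

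The 3 Mrps18 genes encode related proteins of which only Mrps18c takes the place of the bacterial protein S18. Mrps18b changed by -0.75 (SE 0.07, adjusted p = 5.10e-07), Mrps18a by -0.58 (SE 0.07, adjusted p = 8.27e-06) and Mrps18c by -0.38 (SE 0.10, adjusted p = 0.00366). Mrps18c had 27.0, 27.3 and 29.9 CPM in 2D and 22.6, 22.3 and 19.0 CPM in 3D with palmitate, and its call was lost when GC and length trends were removed per library, where its log2 fold change was -0.07. Mrps30, a large subunit protein in spite of its symbol, changed by -0.90 (SE 0.07, adjusted p = 2.84e-08), with 52.4, 49.3 and 52.4 CPM in 2D and 27.0, 27.4 and 28.8 CPM in 3D with palmitate. Mrps36, now known as a part of the α-ketoglutarate dehydrogenase complex rather than of the ribosome, had few counts and changed by -0.52 (SE 0.17, adjusted p = 0.0120). Its call was lost with GC and length trends removed, after thinning, without replicate 1 of the 3D cultures with palmitate (-0.48) and without replicate 2 of the 2D cultures (-0.46).

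Genes of either origin were lower. For the 46 genes with a relative in bacterial ribosomes the median was -0.71 on the log2 scale and 44 were called lower, and for the 30 genes of mitochondria only it was -0.66 and 28 were called lower. By subunit symbol, the medians were -0.80 for the 30 large and -0.52 for the 16 small subunit genes with a bacterial relative, and -0.64 for 18 and -0.72 for 12 genes of mitochondria only. Across the 77 members the log2 fold change had Pearson's r = 0.07 with GC content and -0.01 with log2 transcript length, values which describe genes that share the same libraries. Thus neither property went with the change along a straight line across members. Removing both trends from all libraries still moved the median of the large subunit symbols from -0.74 to -0.58. The median over all members then went from -0.68 to -0.58, and that over all genes tested from 0.01 to -0.08.

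The 4 members that were not called included 3 whose exons overlap another gene. Counting does not always assign reads to 1 gene where exons overlap, and the strand setting of the counting is not given in the sources used here. Mrps6, a relative of the bacterial protein S6 (chr16:92058270-92112227 of GRCm38, plus strand), shares exons on the same strand with Slc5a3, a myo-inositol transporter gene. It had 52.6, 50.005 and 57.0 CPM in 2D and 56.1, 53.0 and 47.5 CPM in 3D with palmitate, so that the ranges overlapped and the log2 fold change was -0.01 (SE 0.08, adjusted p = 0.896). Slc5a3 itself had 73.5, 75.3 and 66.8 CPM in 2D and 182, 180.3 and 194 CPM in 3D, a rise of 1.37 (SE 0.10, adjusted p = 1.31e-08).

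**Figure D3:**
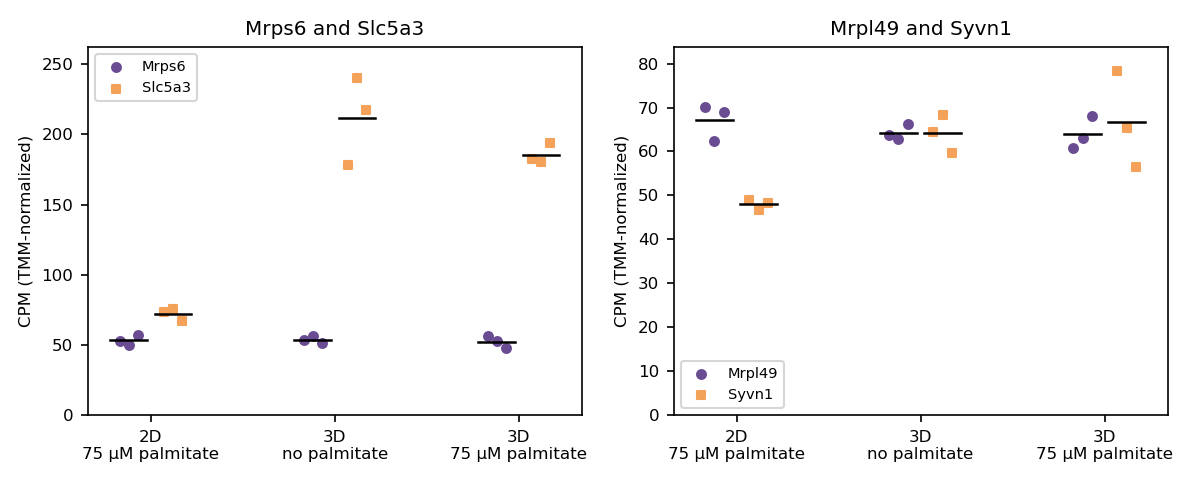
TMM-normalized CPM (y axis, from 0) of Mrps6 and Slc5a3 on the left and of Mrpl49 and Syvn1 on the right, in the 3 conditions; points are libraries and bars are means of 3. The Mrps6 and Mrpl49 libraries stay level across conditions while Slc5a3 and Syvn1 are higher in 3D than in 2D.

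Mrpl49, of mitochondria only (chr19:6053622-6057785 of GRCm38, minus strand), overlaps Syvn1, a ubiquitin ligase gene of the endoplasmic reticulum, on the other strand. It had 70.1, 62.3 and 69.0 CPM in 2D and 60.9, 63.0 and 68.0 CPM in 3D with palmitate and changed by -0.07 (SE 0.07, adjusted p = 0.351), whereas Syvn1 rose by 0.50 (SE 0.10, adjusted p = 3.11e-04). Mrpl14, which overlaps Tmem63b on the other strand, had 35.3, 33.3 and 39.4 CPM in 2D and 37.3, 30.8 and 22.4 CPM in 3D with palmitate, overlapping ranges with a change of -0.20 (SE 0.13, adjusted p = 0.182). It was called lower with no filter on low counts (-0.22) and without replicate 1 of the 3D cultures with palmitate (-0.39). Mrps33, without an overlapping gene, had at most 6.78 CPM in any library and changed by -0.37 (SE 0.17, adjusted p = 0.0726). It was called lower with no filter on low counts (-0.39) and without replicate 2 of the 2D cultures (-0.56). Of the 32 members with any annotated exon overlap, 29 were lower, with a median of -0.60, and of the 45 without one 44 were lower, with a median of -0.73. Of the 4 members whose overlapping gene rose, 2 were called lower, namely Mrps24 with Urgcp on the same strand and Mrps25 with Nr2c2 on the other. Some members that were called lower overlap genes that were also lower in 3D. Mrps34 overlaps Mapk8ip3 on the other strand (-0.60) and Nme3 on the same strand (0.15, not called). On the other strand, Mrpl13 overlaps Mtbp (-0.79), and Mrps7 overlaps Gga3 (-0.59) and Mif4gd (-0.61). The part of the overlaps in these values was not tested.

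Summed over all members, the libraries held 0.452% ± 0.024 of their counts in mitochondrial ribosomal protein genes in 2D, 0.259% ± 0.010 in 3D without palmitate and 0.274% ± 0.016 in 3D with palmitate (SD, n = 3). Every 3D library lay under every 2D library. Per kilobase of transcript, the sum of large subunit symbols over that of small subunit symbols was 2.59, 2.51 and 2.58 in 2D. In 3D with palmitate it was 2.34, 2.34 and 2.28. The 3D cultures without palmitate had 2.34, 2.29 and 2.29. The ratio was thus lower in each 3D library than in each 2D library, a description that carries no test. It was not computed with GC and length trends removed. In that setting the median log2 fold change of the large subunit symbols in 3D against 2D was -0.58 instead of -0.74. The median of the small subunit symbols, -0.58 in the main fit, then moved by no more than the spread between replicates. Sums followed symbols, so Mrps30 and Mrps18a, which lie in the large subunit, and Mrps36 counted as small. The lengths come from 1 annotated transcript per gene. Without them the mean ratios were 2.18, 2.03 and 2.03 in 2D, 3D without and 3D with palmitate.

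Palmitate in 3D cultures left no mitochondrial ribosomal protein gene past the threshold. Of the 77 members, 0 were called by edgeR and 0 by DESeq2, and 17 had an unadjusted p under 0.05 in edgeR's quasi-likelihood test. Over all genes tested, 1.38% were called higher and 0.811% lower with palmitate, and the unadjusted p was under 0.05 for 17.3%. The fold changes were small and mostly positive, with 63 above 0 and 14 below, a median of 0.13 on the log2 scale over the members (9.15% higher) and 0.01 over all genes tested. The median was 0.12 for large and 0.13 for small subunit symbols. Without replicate 1 of the 3D cultures with palmitate, the median was 0.08 over the members, of which 56 were above 0, and 0.05 over the large subunit symbols. All 3 libraries with palmitate lay above all 3 without it for 12 members, 4 large and 8 small, and below for 0, whereas 10.4% of the genes tested had the first pattern. The smallest adjusted p of a member was 0.0659.

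The 3 smallest p-values belonged to small subunit genes, Mrps18b, Mrps16 and Mrps17. Mrps18b had 18.3, 18.4 and 17.2 CPM without and 21.5, 21.7 and 23.9 CPM with palmitate, a log2 fold change of 0.30 (SE 0.08, adjusted p = 0.0659). Mrps16 had 15.4, 16.3 and 14.9 CPM without and 21.5, 18.3 and 17.9 CPM with palmitate, a log2 fold change of 0.34 (SE 0.10, adjusted p = 0.0923). The ranges of both genes did not overlap. Mrps17, also a relative of a bacterial protein, had 46.0, 49.0 and 44.0 CPM and 60.3, 54.0 and 50.5 CPM, a log2 fold change of 0.26 (SE 0.08, adjusted p = 0.0943). The highest values were 0.37 (SE 0.19, adjusted p = 0.327) for Mrps33, which had at most 5.05 CPM in these libraries, and 0.28 (SE 0.11, adjusted p = 0.193) for Mrpl12 among the large subunit genes. The lowest values were -0.11 (SE 0.10, adjusted p = 0.631) for Mrpl23 and -0.12 (SE 0.08, adjusted p = 0.465) for Mrps31.

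Replicate 3 with palmitate, which had the fewest counts, stood apart from replicates 1 and 2 for these genes. Against the mean of the libraries without palmitate, 64 members were higher in replicate 1, 63 in replicate 2 and 38 in replicate 3. The median log2 differences were 0.16, 0.15 and -0.01 over the members and 0.003, 0.0003 and 0.008 over all genes tested. Replicate 3 lay below the mean of replicates 1 and 2 for 58 of the 77 members. This held for 25 of the 26 members with the highest GC content, with a median log2 difference of -0.26, and for 15 of the 25 with the lowest, with -0.06. Over the 77 members, Pearson's r between GC content and this difference was -0.49. Neither this value nor the counts of members were computed over all genes tested. The median coefficient of variation of a member was 8.80% in the 3D libraries with palmitate, 4.89% in those without and 5.78% in 2D.

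**Figure D4:**
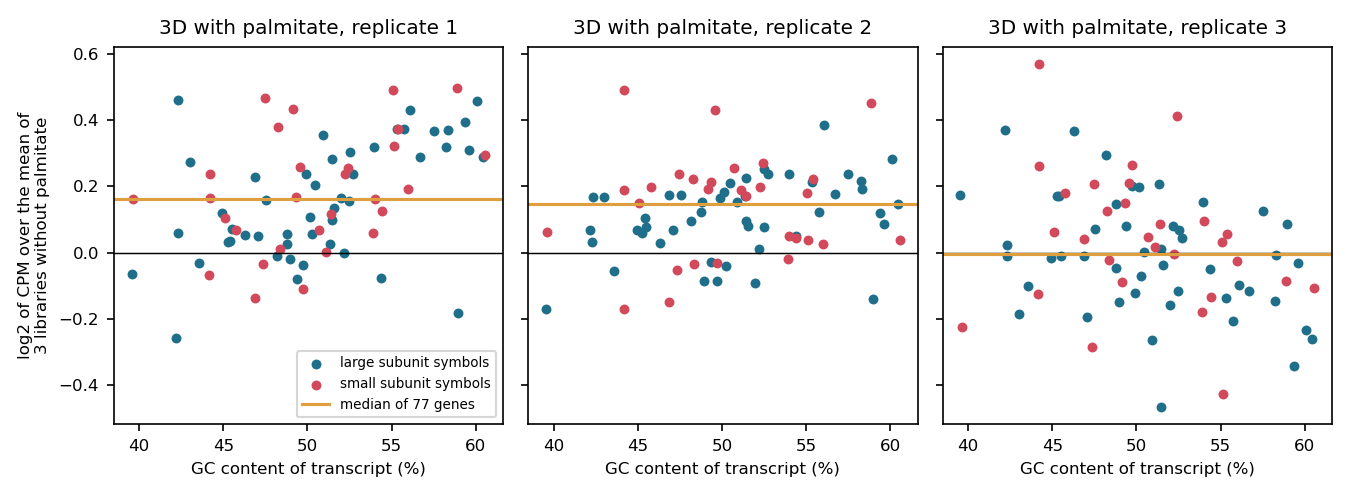
Log2 of the CPM of each gene in each 3D library with palmitate over the mean of the 3 libraries without palmitate (y axis) against the GC content of its transcript in percent (x axis), 1 panel per replicate; the orange line is the median of the 77 genes. The median lies at 0.16, 0.15 and -0.01, and GC-rich genes are high in replicate 1 and low in replicate 3.

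Without replicate 3, 18 members were called higher with palmitate, 11 large and 7 small, and 8.56% of all genes tested were. Their log2 fold changes lay between 0.23 and 0.47, and 11 of the 18 were among the 26 members with the highest GC content. The 18 included Mrpl12, Mrpl2, Mrpl4, Mrps7, Mrps12, Mrps16, Mrps17 and Mrps18b. When GC and length trends were removed from all 9 libraries, 6 members were called higher (Mrpl10, Mrpl12, Mrps7, Mrps16, Mrps17 and Mrps30) and 4.64% of all genes tested were. Mrps7, Mrps16, Mrps17, Mrpl10 and Mrpl12 were called in both. In the 3D against 2D comparison the removal of these trends left 68 members lower and 1 higher, Mrps6 at 0.21, where 42% of the genes tested were lower. Mrpl14, Mrps21 and Mrps33 were then also above 0, at 0.09, 0.05 and 0.02, without being called. Mrps21 was named after its value was seen.

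Most other genes of mitochondrial translation also had lower levels in spheroids than in monolayers. For comparison, 33.9% of all genes tested were called lower and 34.5% higher. The 6 further proteins of the mitochondrial ribosome in the table, 1 of which is Mrpl57, a member by its symbol, were all lower. Dap3, a GTP-binding protein of the small subunit, changed by -0.67 (SE 0.06, adjusted p = 1.24e-07), Chchd1 by -1.30 (SE 0.08, adjusted p = 2.80e-09) and Gadd45gip1 by -1.17 (SE 0.10, adjusted p = 7.13e-08). Of the 15 mitochondrial translation factors tested, 12 were lower and 0 were higher. Tufm, the elongation factor that delivers tRNA, changed by -0.86 (SE 0.07, adjusted p = 3.89e-08) and Tsfm, its exchange factor, by -1.04 (SE 0.11, adjusted p = 7.94e-07). Among the 25 genes of ribosome assembly and rRNA modification, 13 were lower and 2, Mrm1 and Trub2, were higher. Noa1, a GTPase of assembly, changed by -1.06 (SE 0.08, adjusted p = 2.97e-08), and Mrm1, an rRNA methyltransferase, by 0.40 (SE 0.11, adjusted p = 0.00585). Without replicate 1 of the 3D cultures with palmitate, Mrm1 (0.28) and Trub2 (0.21) were not called, and neither was Trub2 after thinning (0.27). Of the 12 genes of mitochondrial DNA transcription and maintenance, 7 were lower. Tfam, which packs and helps to transcribe that DNA, changed by -0.37 (SE 0.06, adjusted p = 1.12e-04), whereas the polymerase gene Polrmt had -0.13 (SE 0.09, adjusted p = 0.245), and was called lower without that replicate (-0.28) and with GC and length trends removed (-0.32).

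**Figure D5:**
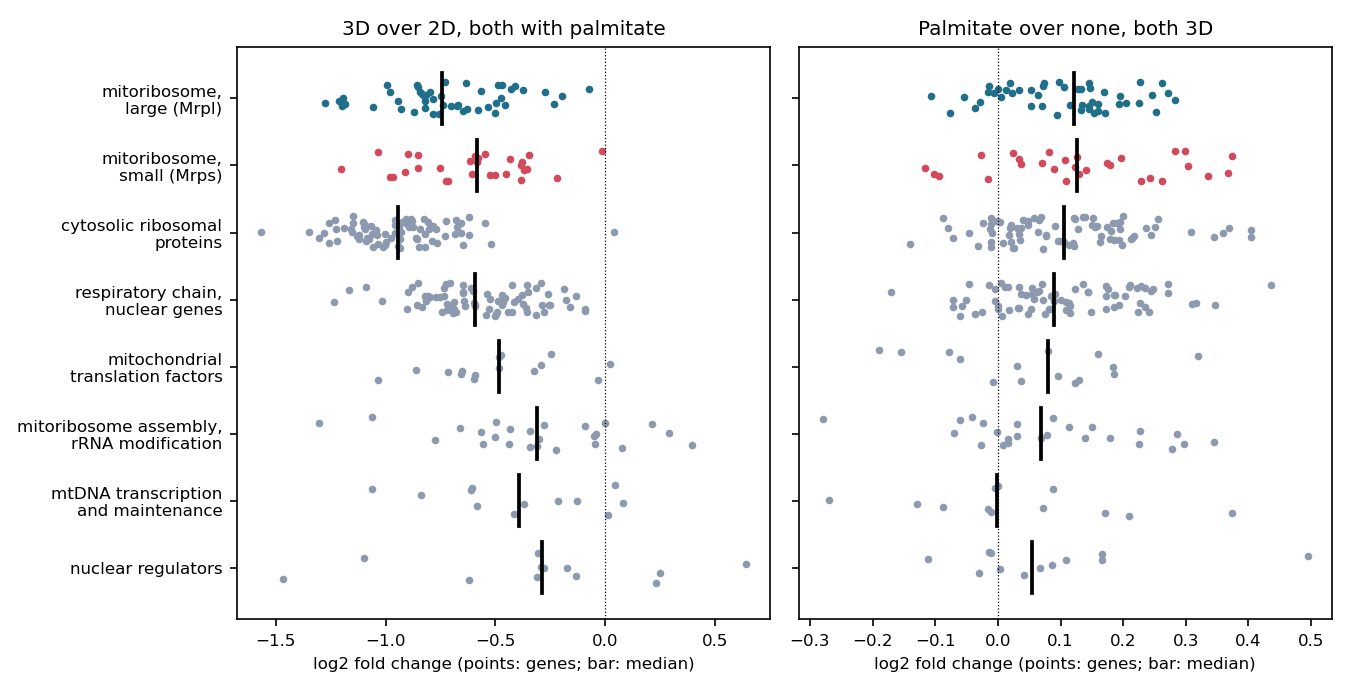
Log2 fold changes of the genes tested in 8 lists (rows) for 3D over 2D cultures with palmitate on the left and palmitate over none in 3D on the right; points are genes and black bars are medians. On the left the medians are -0.74 and -0.58 for large and small subunit symbols and -0.95 for cytosolic ribosomal proteins, and on the right every median lies within 0.13 of 0.

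The decrease was shared with the cytosolic ribosome and the respiratory chain. Of 79 cytosolic ribosomal protein genes tested, 78 were lower in 3D (median -0.95 on the log2 scale). Of 77 nuclear genes taken by symbols of the respiratory chain and ATP synthase, 70 were lower (median -0.59). The sum of cytosolic over mitochondrial ribosomal protein genes was 7.50 ± 0.09 in 2D, 6.30 ± 0.08 in 3D without and 6.22 ± 0.11 in 3D with palmitate, in CPM (SD, n = 3). With palmitate in 3D, 0 genes were called by edgeR and 0 by DESeq2 in any of these lists or in that of the nuclear regulators. An unadjusted p under 0.05 in edgeR's test was found for 12 cytosolic ribosomal protein genes, 15 respiratory chain genes, 5 assembly genes, 4 translation factors, 2 further ribosomal proteins, 2 regulators and 0 genes of mitochondrial DNA transcription, where 17.3% of all genes tested had one. Both comparisons used the same 3 libraries of 3D cultures with palmitate.

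Of the 12 nuclear regulators of mitochondrial genes tested, 8 were lower in 3D and 2 were higher, against 33.9% and 34.5% of all genes tested. Myc, a transcription factor of growth and ribosome genes, had 459, 439.6 and 484 CPM in 2D and 182, 157 and 159 CPM in 3D with palmitate, a log2 fold change of -1.47 (SE 0.07, adjusted p = 3.19e-10). The coactivator genes Ppargc1b and Pprc1 changed by -1.10 (SE 0.17, adjusted p = 5.65e-05) and -0.62 (SE 0.07, adjusted p = 3.29e-06). Nrf1, a factor that binds promoters of many mitochondrial genes, changed by -0.31 (SE 0.08, adjusted p = 0.00223), whereas Gabpa, the DNA-binding part of the factor GABP, had 0.23 (SE 0.10, adjusted p = 0.0589). Gabpb2, a partner of Gabpa, was higher by 0.64 (SE 0.10, adjusted p = 3.42e-05), and Hcfc1, a cofactor of several promoters, by 0.25 (SE 0.07, adjusted p = 0.00788). Hcfc1 (-0.21) and Gabpa (-0.08) were below 0 with GC and length trends removed, and Gabpa was called higher with no filter on low counts (0.20), with Rn45s as covariate (0.27), after thinning (0.24) and without replicate 1 of the 3D cultures with palmitate (0.34).

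Letters of the motifs of these factors were looked for in the RefSeq promoters of the members (GRCm38.p6), from 250 bases before the start of the gene to 50 bases after it, on both strands. Promoters were found for 68 members, 74 promoters in all. The core CGCATGCG of the NRF1 motif stood in 7 of them, or 9.46%, against 1.87% of all promoters and 3.80% of those of genes tested. The ETS letters CCGGAAGT, bound by GABPA among others, stood in 12, or 16.2%, against 3.89% and 7.97%. The E-box CACGTG, bound by MYC among others, stood in 7, or 9.46%, against 7.15% and 9.86%. These 7 belonged to 5 members, since 3 were overlapping windows of Mrpl2 that hold the same letters. The YY1 letters AAGATGGCG stood in 8, or 10.8%, against 1.40% and 2.94%. None of the 4 motifs contains another, and a match is a description of letters rather than a site. In 3D against 2D the median was -0.70 on the log2 scale for the 7 members with the NRF1 core and -0.62 for the 61 without it. It was -0.50 for the 12 with the ETS letters and -0.66 for the 56 without, -0.78 for the 5 with the E-box and -0.63 for the 63 without, and -0.60 for the 8 with the YY1 letters and -0.64 for the 60 without. The 40 members with none of the 4 motifs had a median of -0.64.

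The 100 bases before the annotated start of 5 members show where such letters lie, with motif letters in capitals and the gene's own strand read from 5′ to 3′. Mrpl22 and Mrpl9 hold the NRF1 core, Mrpl3 and Mrps27 the ETS letters and Mrpl20 the E-box. In Mrps27 the ETS letters stand as their reverse complement.
Mrpl22, chr11:58171564-58171663, plus strand: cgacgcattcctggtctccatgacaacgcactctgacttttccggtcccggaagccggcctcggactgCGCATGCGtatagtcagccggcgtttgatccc
Mrpl9, chr3:94443236-94443335, plus strand: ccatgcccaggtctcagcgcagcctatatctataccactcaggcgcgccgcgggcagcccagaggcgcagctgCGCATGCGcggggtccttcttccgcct
Mrpl3, chr9:105053168-105053267, plus strand: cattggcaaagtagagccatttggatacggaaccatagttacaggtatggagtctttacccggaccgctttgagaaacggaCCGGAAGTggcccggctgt
Mrps27, chr13:99344686-99344785, plus strand: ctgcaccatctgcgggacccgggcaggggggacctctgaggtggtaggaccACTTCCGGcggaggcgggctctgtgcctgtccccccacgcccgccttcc
Mrpl20, chr4:155802778-155802877, plus strand: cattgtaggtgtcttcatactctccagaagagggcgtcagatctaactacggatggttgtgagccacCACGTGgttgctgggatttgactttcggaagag
In the 3D against 2D comparison these genes changed by -1.20 (Mrpl22), -0.47 (Mrpl9), -0.28 (Mrpl3), -0.59 (Mrps27) and -0.82 (Mrpl20) on the log2 scale. They are examples only. Mrpl22 and Mrpl9 had the largest and the smallest decrease of the members with the NRF1 core in these 100 bases.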

How the data were processed

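The authors cleaned the 50 bp single-end reads, inspected them with FastQC 0.11.9, aligned them to GRCm38 with HISAT2 2.1.0 and counted reads per gene with HTSeq, per the labels and the methods of the study. The deposited table holds raw read counts, 1 column per library. The annotation release and the strand setting of the counting are not given in the sources used here. Libraries were grouped by their labels. A filter on low counts (filterByExpr) was applied, libraries were scaled by TMM, and edgeR 4.0.16 (R 4.3.3) fitted a quasi-likelihood model with the 3 conditions to all 9 libraries. Calls used Benjamini-Hochberg adjusted p under 0.05 over all genes tested, and standard errors (SE) were taken as |log2 fold change| over the square root of F. CPM are TMM-normalized. GC content, length and exon overlap came from GENCODE transcripts of GRCm38, and promoters from RefSeq. Replicates differed by more than sampling noise, with chi-square values per gene of 3.89 to 19.7. The members and gene lists were chosen with earlier results of these data known. Genes were named by role, by the smallest p among called genes without overlap, and by the highest and lowest change per subunit. Mrpl9, Mrpl10, Mrpl20, Mrps27, the genes with the smallest palmitate p and the overlapping genes were named after their values were seen. The fit was tested on simulated data. Alternatives were other scalings and filters, DESeq2 1.42.0, the 2 groups alone, a replicate block, Rn45s as covariate, thinning, the removal of GC and length trends (splines with 4 degrees of freedom) and leaving out each library.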

Additional observations from a re-analysis of the deposited data

How the results depend on the processing

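Of the counts, medians and called numbers by subunit, 220 values under an alternative moved by no more than the spread between replicates (medians) or stayed near the reported number (counts), and 8 did not. The large subunit median with palmitate still ranged from 0.05 to 0.14 when 1 library was left out. With GC content and length trends removed, the median log2 fold change of the large subunit genes in 3D against 2D was -0.58, 1 small subunit gene was called higher, and palmitate gave 2 large and 4 small subunit genes higher. With no filter on low counts, palmitate gave 1 large subunit gene higher, Mrpl12. Leaving out 1 library at a time, the small subunit median in 3D against 2D ranged from -0.66 to -0.53, and palmitate called between 0 and 11 large and between 0 and 7 small subunit genes higher, the highest counts coming without replicate 3 of the 3D cultures with palmitate. Signs turned with GC content and length trends removed for Gabpa (-0.0764), Hcfc1 (-0.21), Mrpl14 (0.0873), Mrps33 (0.0184) and Mrps6 (0.21). Of the other members only Mrps21 turned, to the value given above. Mrps6 was also at 0.0615 after thinning, and it ranged from -0.0704 to 0.0414 when 1 library was left out. The cause was not tested. Replicate numbers did not pair the libraries, with correlations of -0.24 to 0.15 between libraries of the same number. With the number as a replicate block, 73 members were lower in 3D and 0 were called with palmitate. Ratios of large to small subunit sums depend on transcript lengths and on subunits taken by symbol. Depth limits genes with few counts, such as Mrps33 and Mrps36.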
